A study of Homo sapiens with 8 samples.

Results

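The effect of combined DNA demethylation and EZH2 inhibition was read from the MT-1 array treated with both agents set against the untreated MT-1 array, over all 17687 genes that the array annotation names. They are measured by 17709 of its 21448 transcript probe sets, and no named gene was left out by its values. The gene lists below were chosen with earlier results of these data known. Some single genes, promoters and motifs were chosen after their values were seen. MT-1 is a line established from adult T cell leukaemia (ATL), the T cell malignancy caused by the retrovirus HTLV-1. The combination was 500 nM OR21, a DNA demethylating agent, with 2500 nM EPZ-6438 (tazemetostat, an EZH2 inhibitor), for 96 h, each compound being given at seeding and once more at 48 h. Untreated MT-1 cells received neither. MT-1 arrays with 500 nM OR21 alone or 2500 nM EPZ-6438 alone, and MT-2 arrays (an HTLV-1-infected T cell line; untreated, or with 100 nM OR21 and 500 nM EPZ-6438), are quoted beside them. All cells grew in the same serum-containing medium, each line is a single established culture, and each condition was measured on 1 array. No difference below therefore has an error or a test, and all are descriptions of these arrays. Because the RNA came from whole cultures, a change in the share of cells that express a gene and a change in RNA per cell cannot be told apart.

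DNA methylation at promoter CG dinucleotides and trimethylation of histone H3 at lysine 27, laid down by the EZH2 subunit of Polycomb repressive complex 2 (PRC2), are separate repression systems. Demethylating nucleoside analogues act after incorporation into DNA, by trapping and depleting the maintenance methyltransferase DNMT1, and germline genes whose promoters are kept methylated in somatic cells are their classic responders. In ATL cells the Polycomb mark is known to be widely redistributed and to cover genes of T cell regulation.

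Values are log2 units, made by the authors with RMA. A level counted as signal when it passed the value that 95% of an array's negative controls stay under, 7.46 on the untreated array and 7.19 on the combination array. Where only 1 of the 2 levels lay above background, that level had also to pass the higher of the 2 backgrounds. The difference was then taken against the background of the other array. It is written as "at least" (or, where the level ended below background, "or lower"). Otherwise a gene was left without a difference. Both arrays were above background for 7534 probe sets. By this rule 687 more had a difference from the combination array alone and 281 from the untreated array alone. The other 9207 had no measurable difference. They include probe sets above background on the combination array only, at a level not above 7.46. Across the 17709 probe sets the combination array correlated with the untreated array at r = 0.9549, with the OR21 array at 0.9836 and with the EPZ-6438 array at 0.962. These are descriptions across genes of 1 line and not a test.

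The identity of the line was checked against markers. Of 14 T cell markers on the array, 7 stood above background in untreated MT-1 cells (CD5, CD7, CD28, CD247, ZAP70, LAT and GATA3). The other 7 did not, among them defining members: CD3D at 5.63, CD3E at 4.87, CD3G at 3.66, CD4 at 4.07, CD2 at 4.88 and the kinase LCK at 4.22. The same 7 markers were above background with both agents. Of the ATL phenotype markers 6 of 10 were above background on both arrays, with IL2RA, the interleukin-2 receptor alpha chain, at 15.89 untreated and 15.1 with both agents and IRF4 at 15.05 and 14.61. No marker of B cells (5 on the array), myeloid cells (6), erythroid cells (4), or endothelium and fibroblasts (6) stood above background untreated. With both agents 2 B cell markers (CD79A and BLK), 1 myeloid (MPO), 1 erythroid (HBA1) and 1 endothelial and fibroblast marker (COL1A2) did. Of 7 markers of NK and cytotoxic cells PRF1 was above background untreated, at 7.74. With both agents 3 were, GNLY at 9.42, PRF1 at 8.25 and GZMB at 7.35. The background was 7.46 untreated and 7.19 with both agents. GZMB and MPO (7.3) lay between these 2 values, so they had no measurable difference.

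By the rule of 1 log2 unit or more, 725 probe sets (4.09% of 17709) were higher with both agents and 919 (5.19%) were lower. The higher differences reached further. Of these probe sets 213 were higher by 2 or more, 91 by 3 or more and 26 by 5 or more, whereas 69 were lower by 2 or more, 8 by 3 or more and none by 5 or more. Among the higher probe sets 270 had been at or under background in untreated cells, and among the lower ones 64 ended there. The rule allows a lower call only from an untreated level of at least 8.19. Of probe sets from there to 9 in untreated cells 10.7% were lower and 7.82% higher, of those between 9 and 11, 14.5% and 6.23%, and of those between 11 and 13, 15.5% and 3.31%. The split between higher and lower calls moved with the scaling: 44.1% of calls were higher as deposited, 25.7% with each array centred on its median and 60% after cyclic loess. With no background level 1546 probe sets were higher (8.73%) and 1136 lower (6.41%), which makes 57.6% of calls higher. Centring moved the median difference of all named probe sets from -0.05 to -0.28, so group medians are best read against that shift. In a list mostly silent in untreated cells, few members could be called lower by the rule.

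**Figure D1:**
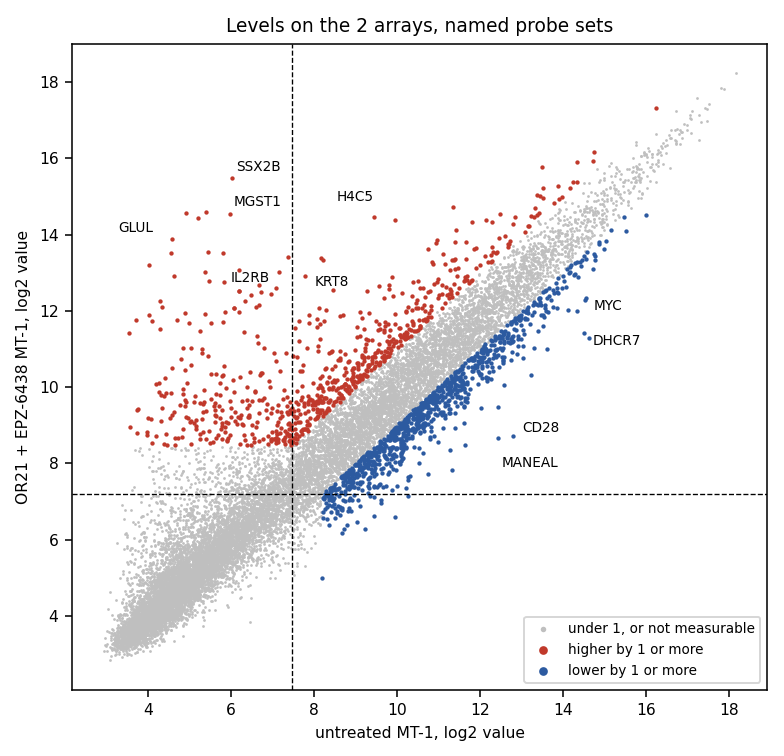
Log2 values of the named probe sets on the untreated MT-1 array (horizontal) and the array with both agents (vertical), 1 point each, Y-linked genes not shown, dashed lines at each array's background (7.46 and 7.19). Red points (725 probe sets were higher in all) extend far from the diagonal at the upper left, where genes were silent untreated, and blue points (919 were lower in all) form a closer band below it.

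Promoters of genes that stand for the main patterns are printed here, each 250 bases before to 50 after the annotated start, from RefSeq (GRCh38.p14), 5′ to 3′ on the gene's strand, with CG dinucleotides, the site of mammalian DNA methylation, in capitals. DAZL and SSX1 are germline genes, MGST1 a detoxifying enzyme silent in untreated MT-1, and GLUL a metabolic enzyme silent there but strongly expressed in MT-2. SSX1 (chrX:48255142-48255441, plus strand) holds 5 CG, MGST1 (chr12:16347395-16347694, plus strand) 18, GLUL (chr1:182391741-182392040, minus strand) 29 and DAZL (chr3:16605374-16605673, minus strand) 33.
SSX1: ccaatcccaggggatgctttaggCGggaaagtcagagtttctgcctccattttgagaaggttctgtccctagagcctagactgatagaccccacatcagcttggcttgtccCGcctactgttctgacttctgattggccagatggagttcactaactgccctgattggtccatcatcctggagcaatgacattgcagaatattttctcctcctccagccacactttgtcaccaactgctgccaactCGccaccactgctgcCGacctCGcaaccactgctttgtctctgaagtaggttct
MGST1: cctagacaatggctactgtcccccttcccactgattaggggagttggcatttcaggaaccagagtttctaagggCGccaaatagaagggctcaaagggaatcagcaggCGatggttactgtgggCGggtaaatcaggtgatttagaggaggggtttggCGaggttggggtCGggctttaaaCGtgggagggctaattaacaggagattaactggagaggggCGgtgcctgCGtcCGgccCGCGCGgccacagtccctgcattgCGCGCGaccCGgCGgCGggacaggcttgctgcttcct
GLUL: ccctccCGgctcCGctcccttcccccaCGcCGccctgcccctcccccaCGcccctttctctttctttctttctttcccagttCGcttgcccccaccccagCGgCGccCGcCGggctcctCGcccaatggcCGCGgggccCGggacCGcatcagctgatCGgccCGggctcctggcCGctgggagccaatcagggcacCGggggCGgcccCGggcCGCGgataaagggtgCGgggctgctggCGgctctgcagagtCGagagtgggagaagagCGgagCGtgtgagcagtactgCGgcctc
DAZL: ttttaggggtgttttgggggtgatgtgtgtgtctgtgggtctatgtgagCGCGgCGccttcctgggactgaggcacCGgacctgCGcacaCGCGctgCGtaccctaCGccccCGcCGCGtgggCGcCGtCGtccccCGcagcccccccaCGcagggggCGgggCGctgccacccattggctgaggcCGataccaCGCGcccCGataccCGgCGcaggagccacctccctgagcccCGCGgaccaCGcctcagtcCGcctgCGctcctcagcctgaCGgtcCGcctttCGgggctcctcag

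A promoter window was matched for 14250 of 17687 genes. Genes higher from a silent start had a median of 23 CG in the window (207 genes), and 76.8% of them held 10 or more. Genes that stayed unmeasurable had a median of 14 (7108 genes, 57.0%), and genes that were lower a median of 27 (759 genes, 92.1%). Genes within 1 of their untreated level did not differ from the lower ones in the median, 27 (5785 genes, 91.3%). Over all genes the share with 10 or more was 73.8%. Newly detected genes thus lay between the unmeasurable and the expressed genes in CG content, with SSX1 among those of few CG at a difference of at least 7.15.

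**Figure D2:**
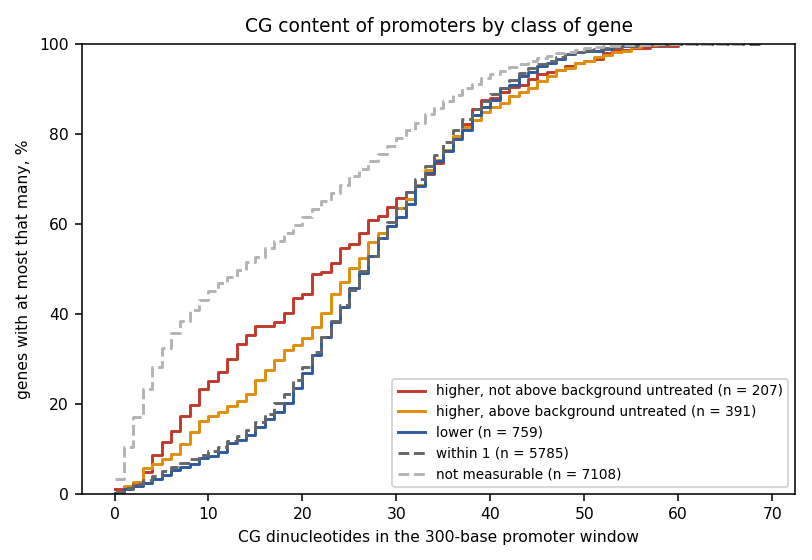
Cumulative share of genes (vertical, %) by the number of CG dinucleotides in the 300-base promoter window (horizontal), for 5 classes of gene in the comparison of combination with untreated MT-1 cells. The curve of genes higher from a silent start (median 23 CG) runs between that of unmeasurable genes (14) and that of lower genes (27).

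The X chromosome, where most cancer-testis families lie, held 7.72% of the higher probe sets against 4.02% of all named probe sets and 4.13% of the lower ones. Runs of 3 or more neighbouring genes that were all higher included 9 CT45A genes, 5 GAGE genes and 4 SSX genes on X, 5 metallothionein genes on chromosome 16 and IFITM1, IFITM2 and IFITM3 on chromosome 11. Members of these families have near-identical copies, so probe sets may read several of them, and 9 named probe sets had the same 8 values as another. A run is therefore not a count of independent genes.

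Cancer-testis antigens, proteins of male germ cells that tumours re-express, gave the 3 highest differences of the comparison. Of 91 members on the array 26 were higher (28.6%, against 4.09% of all genes) and 3 were lower (3.3%, against 5.19%). The median difference of the list in the deposited values was 0.6, against -0.05 over all genes. SSX2B, a transcriptional repressor of the germline, stood at 6.02 untreated, 14.46 with OR21, 6.06 with EPZ-6438 and 15.47 with both, a difference of at least 8.02. GAGE12G went from 4.92 untreated to 12.76 with OR21, 4.42 with EPZ-6438 and 14.56 with both (at least 7.1). Both genes were under background without OR21. Further members were GAGE13 (at least 6.09), GAGE2A (at least 6.06), XAGE1B (at least 5.44), CT45A1 (at least 5.22) and SSX5 (at least 4.3). The levels of CT45A1 were 6.68, 11.64, 5.58 and 12.68 in the same order of treatments. CTCFL, the testis paralogue of the insulator protein CTCF, stood at 4.26, 8.14, 3.81 and 10.11 (at least 2.65). PAGE5 and PAGE2B, at 9.64 and 9.16 with both agents, were higher by at least 2.18 and at least 1.7. Of the 18 members already above background in untreated cells 13 stayed within 1, 2 were higher and 3 were lower. The higher ones were MAGEA9 (8.74 untreated, 9.96 with both; 1.21) and VCX3A (7.84 and 9.36; 1.51). CTAG2 differed by -1.08 (12.04 untreated, 10.96 with both), SPANXN3 by -1.56 and OIP5, a centromere factor that also counts as a cancer-testis antigen, by -1.33.

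Regulators of germ cells and meiosis gave 7 of 75 members higher (9.33%, against 4.09% of all genes) and 1 lower (1.33%, against 5.19%). Of the 75, 6 were above background untreated, so most could not be called lower. DAZL, an RNA-binding protein that licenses germ cell development, stood at 4.55 untreated, 11.43 with OR21, 4.52 with EPZ-6438 and 13.51 with both (at least 6.05). GCNA, a germ cell nuclear protein outside the fixed list but among the 20 highest genes, stood at 7.38, 13.6, 7.31 and 13.41 (at least 5.95), with the OR21 array the highest. The same held for SOHLH2, a transcription factor of early germ cells (4.42, 9.27, 4.62 and 8.76; at least 1.3), and for the cancer-testis genes PAGE5 (9.77 with OR21, 9.64 with both) and PNMA5 (9.61 and 8.99). The pluripotency factor SOX2 reached 10.56 with both agents from 5.82 (at least 3.11), with 8.47 on the OR21 array. SYCP3 and SYCP2, axial proteins of meiotic chromosomes, were higher by at least 1.16 and at least 1.03. BRDT, a testis bromodomain protein already detected at 8.1, was higher by 1.89. The lower member was PLD6, a mitochondrial enzyme of the piRNA pathway (-1.4).

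**Figure D3:**
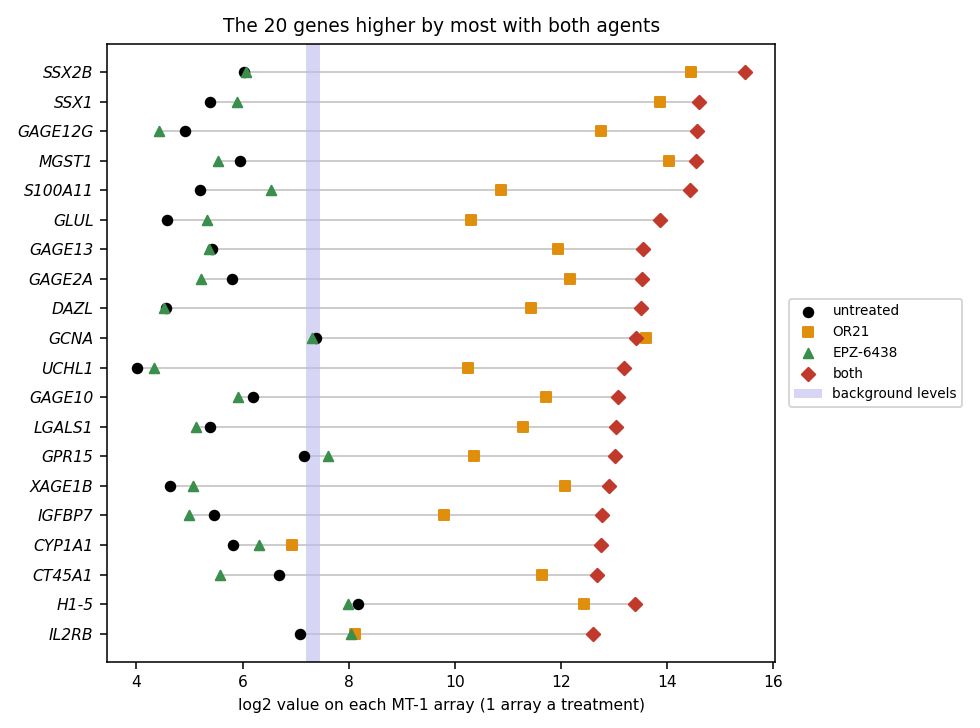
Log2 values (horizontal) of the 20 genes with the highest difference between combination and untreated MT-1 cells (vertical, ranked), 1 array for each of 4 treatments, with the range of the 4 background levels shaded. SSX1 (13.87 with OR21, 14.6 with both) and MGST1 (14.04 and 14.55) lie less than 1 apart on these arrays and SSX2B (14.46 and 15.47) just over 1, while CYP1A1 (6.94 with OR21, 12.76 with both) and IL2RB (8.12 and 12.61) lie far apart.

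Several genes among the highest were not germline genes. MGST1, a membrane glutathione transferase, stood at 5.96 untreated, 14.04 with OR21, 5.53 with EPZ-6438 and 14.55 with both (at least 7.09). GLUL, which makes glutamine from glutamate and ammonia, stood at 4.57, 10.31, 5.33 and 13.87 (at least 6.42). UCHL1, a ubiquitin hydrolase typical of neurons and germ cells, stood at 4.02, 10.25, 4.33 and 13.19 (at least 5.74). In these 3 genes the EPZ-6438 array lay under background and the combination array above the OR21 array, by a margin that was small for MGST1 and large for the other two. The secreted IGFBP7 (5.47, 9.8, 4.99 and 12.77; at least 5.32) had the same pattern. The gut-homing receptor GPR15, a known marker of HTLV-1-infected T cells, stood at 7.15, 10.36, 7.61 and 13.02 (at least 5.56), so that it was also above background, by a small margin, with EPZ-6438.

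Of the glutathione and xenobiotic enzymes 7 of 37 were higher (18.9%, against 4.09% of all genes) and 1 was lower (2.7%, against 5.19%). Of the 37, 9 were above background untreated, so most could not be called lower. CYP1A1, a monooxygenase that is the standard target of the aryl hydrocarbon receptor, stood at 5.82 untreated, 6.94 with OR21, 6.31 with EPZ-6438 and 12.76 with both (at least 5.31). It was under background on each of the other 3 MT-1 arrays. CYP1B1, another target of that receptor, stood at 4.03, 7.89, 4.38 and 11.89 (at least 4.43), and the quinone reductase NQO1 at 7.63, 9.87, 7.22 and 11.73 (4.1). GSTP1 and GPX4, high in untreated cells at 13.97 and 14.34, were higher by 1.02 and 1.03. The lower member was GSTO1 (-1.05). Myoglobin, the oxygen-storing protein of muscle (MB), had a pattern like CYP1A1, at 6.32, 6.42, 6.53 and 11.45 (at least 3.99); it was singled out after its values were seen.

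S100 and annexin proteins, calcium-dependent partners at membranes and the cytoskeleton, gave 8 of 26 members higher (30.8%, against 4.09% of all genes) and 0 lower. Of the 26, 8 were above background untreated, so most could not be called lower. S100A11 stood at 5.2 untreated, 10.88 with OR21, 6.54 with EPZ-6438 and 14.43 with both (at least 6.97), close to its level of 14.01 in untreated MT-2 cells. Its relative S100A10 stood at 4.28, 6.85, 7.99 and 12.25 (at least 4.79), above background with EPZ-6438 and not with OR21. ANXA1, at 4.69, 6.54, 6.83 and 11.75, was above background on the combination array alone (at least 4.29). ANXA2, the partner of S100A10, was already at 14.71 and was higher by 1.23. The other members higher by 1 or more were S100A13, S100A3, S100A8 and ANXA5, by 1.05 to 2.1, the first 3 of these as lower bounds.

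Keratins and epithelial genes gave 12 of 35 members higher (34.3%, against 4.09% of all genes) and 0 lower. Of the 35, 5 were above background untreated, so most could not be called lower. KRT8, an intermediate filament of simple epithelia, stood at 7.77 untreated, 10.02 with OR21, 7.93 with EPZ-6438 and 12.91 with both (5.14). EMP2 was at 5.84, 8.06, 9.48 and 11.96 (at least 4.5), and the tetraspanin CD9 at 4.28, 6.13, 7.38 and 11.53 (at least 4.07). In untreated MT-2, also a T cell line, CD9 stood at 16.35 and EMP2 at 5.35, under background. Lower bounds of 1.11 to 2.39 were reached by the junction proteins CLDN1 (2.39), DSP (2.15) and OCLN (1.11), by KRT18 (1.64) and KRT5 (1.82) and by EPCAM (1.2). Of the 5 epithelial markers, 1 was above background untreated and 4 with both agents; their levels ranged from 4.35 to 7.77 and from 5.8 to 12.91. CDH1 (E-cadherin) was the marker not above background. The part of any other cell type in these values was not tested.

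Genes of stroma and vessels gave 8 of 41 members higher (19.5%, against 4.09% of all genes) and 0 lower. Of the 41, 7 were above background untreated, so most could not be called lower. The galactoside-binding lectin LGALS1 stood at 5.38 untreated, 11.28 with OR21, 5.12 with EPZ-6438 and 13.03 with both (at least 5.57). TIMP1, an inhibitor of matrix metalloproteinases, stood at 11.35, 12.39, 11.66 and 14.71 (3.36), and smooth muscle actin ACTA2 at 10.74, 12.57, 11.65 and 13.61 (2.87). The defining markers of endothelium and fibroblasts stayed low: 1 of 6, COL1A2, was above background with both agents, and the highest of the 6 reached 7.85. LMNA, the nuclear lamin A of differentiated cells, was at 8.12, 10.09, 9.29 and 12.06 (3.93).

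Feedback regulators of ERK signalling and immediate early genes, which are switched on within minutes of mitogenic signals, lay on the higher side. Of 46 members 20 were higher (43.5%, against 4.09% of all genes) and 0 lower, with a median difference of 1.1. ETV5, a transcription factor downstream of ERK, stood at 3.55 untreated, 9.44 with OR21, 3.48 with EPZ-6438 and 11.43 with both (at least 3.97). The ERK phosphatase DUSP6 was at 5.74, 5.96, 5.75 and 10.1 (at least 2.64), so it was above background with both agents alone among the MT-1 arrays. DUSP5, the nuclear ERK phosphatase, stood at 7.07, 8.39, 7.12 and 10.68 (at least 3.23), and DUSP4 at 11.65, 12.99, 11.9 and 13.81 (2.17). Also higher were PHLDA1 (3.72), the EGF receptor inhibitor ERRFI1 (at least 3.28), RGS1 (at least 2.88), IER3 (at least 2.85), KLF10 (2.52) and EGR1 (2.13). With arrays centred on their medians the list gave 17 members higher and 2 lower.

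Interferon-stimulated genes gave 12 of 55 members higher (21.8%, against 4.09% of all genes) and 0 lower, with a median difference of 0.75. IRF9, the DNA-binding subunit of the interferon-activated ISGF3 complex, stood at 6.8 untreated, 7.03 with OR21, 6.76 with EPZ-6438 and 11.02 with both (at least 3.56). IRF1 was at 6.22, 6.93, 6.3 and 10.27 (at least 2.82). Neither was above background on another MT-1 array. The double-stranded RNA sensor TLR3 was at 6.0, 8.06, 7.14 and 9.44 (at least 1.98) and the cytosolic RNA sensor RIGI at 7.25, 7.53, 6.94 and 8.62 (at least 1.16). The membrane restriction factors IFITM3 (10.96 to 12.76), IFITM2 (11.17 to 12.62) and IFITM1 (13.18 to 14.22) were higher by 1.8, 1.45 and 1.04. Of the 55 members 17 were above background untreated and 30 with both agents. Some classic members, named after their values were seen, remained under background. ISG15 was at 5.29 untreated and 5.43 with both, IFIT1 at 3.61 and 4.04, OAS1 at 4.5 and 4.47 and MX1 at 5.66 and 7.14. AIM2, a sensor of cytosolic DNA outside the list, was higher by 4.43 (9.95, 10.7, 10.37 and 14.38).

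The promoter of IFITM3 (chr11:320811-321110, minus strand, GRCh38.p14) shows the interferon element in capitals. It was searched on both strands as GAAA, any 2 bases and GAAA again, and matched 2 times.
IFITM3: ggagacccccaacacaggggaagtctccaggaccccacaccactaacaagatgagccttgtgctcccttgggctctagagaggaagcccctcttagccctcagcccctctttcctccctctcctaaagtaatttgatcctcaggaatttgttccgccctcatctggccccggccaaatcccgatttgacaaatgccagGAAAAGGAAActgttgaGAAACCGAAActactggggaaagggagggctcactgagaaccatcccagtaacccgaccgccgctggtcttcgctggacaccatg
Of the interferon-stimulated genes with a window, 27 of 41 held this motif, against 3.11% of all 14250 windows, and of the members higher by 1 or more 7 of 11 did. The windows of IRF9 and IRF1 held none. A match is a description of letters and says nothing of a factor's binding in these cells.

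Metallothioneins are small metal-binding proteins whose genes lie in 1 cluster on chromosome 16. Of 12 members 8 were higher (66.7%, against 4.09% of all genes) and 0 lower, with a median difference of 1.47. MT2A, the most abundant form in most cells, stood at 16.23 untreated, 16.78 with OR21, 16.74 with EPZ-6438 and 17.33 with both (1.1). MT1G was at 12.84, 13.36, 13.21 and 14.46 (1.61), and MT1X at 14.24, 14.76, 14.73 and 15.38 (1.14). In all 3 the single-agent arrays lay between the untreated and the combination array. MT1H and MT1M differed by 1.94 and 1.67. In MT-2 cells with both agents 5 members of the list were higher by 1 or more (1.65% of all genes were). The near-identical copies of the MT1 genes mean that their probe sets may not be separate measurements. The MT2A promoter (chr16:56608334-56608633, plus strand, GRCh38.p14) is shown with the metal response core in capitals, searched as TGCGCNC or TGCACNC on both strands, with 8 matches.
MT2A: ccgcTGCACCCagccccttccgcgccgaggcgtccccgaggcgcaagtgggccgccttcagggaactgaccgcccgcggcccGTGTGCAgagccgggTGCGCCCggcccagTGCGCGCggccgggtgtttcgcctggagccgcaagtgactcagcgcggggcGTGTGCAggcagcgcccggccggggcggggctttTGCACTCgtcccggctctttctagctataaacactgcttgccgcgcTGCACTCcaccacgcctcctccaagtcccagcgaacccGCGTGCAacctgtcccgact
All 5 metallothionein genes with a window held the core, as did 35.1% of all windows.

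In growth control, of p53 targets 10 of 40 were higher (25%, against 4.09% of all genes) and 1 was lower (2.5%, against 5.19%). Their median difference was 0.65, and 27 of the 40 were above background untreated. MDM2, the ligase that degrades p53, stood at 11.81 untreated, 13.82 with OR21, 12.29 with EPZ-6438 and 14.34 with both (2.54). The death-promoting BH3 protein PMAIP1 (NOXA) was at 11.39, 12.58, 11.5 and 13.8 (2.41). CDKN1A, the CDK inhibitor p21, was above background with both agents and on no other MT-1 array, at 4.33, 6.99, 4.7 and 9.46 (at least 2.0). Of CDK inhibitors and cyclins 5 of 31 were higher (16.1%, against 4.09% of all genes), CDKN1A among them, and 0 were lower. SFN was at 8.13, 11.17, 9.21 and 11.66 (3.53), and the meiotic cyclin CCNA1 at 4.89, 10.51, 5.4 and 11.94 (at least 4.48). The others were the cyclin CCNG2 (2.24) and the transcription factor E2F8 (1.47). The CDK inhibitors CDKN1C (-0.08) and CDKN2A (0.78) stayed within 1 of untreated. Of the 58 mitosis genes 4 were higher (6.9%, against 4.09% of all genes) and 0 lower. All 58 were above background untreated, and among all probe sets at untreated levels of 9 to 11, 6.23% were higher. The higher share was thus near that of expressed genes, and with centred arrays 1 mitosis gene was higher. Of 47 DNA replication genes 0 were higher and 5 lower (10.6%), POLE2 (-1.26) and POLD1 (-1.23 or lower) by most. Of these 47 genes 46 were above background untreated. Among all probe sets at untreated levels of 9 to 11, 14.5% were lower. In the BCL2 family BID, a death-promoting member, stood at 4.88, 7.21, 5.28 and 10.44 (at least 2.98), while MCL1, a survival factor, was higher by 1.08 and BAD differed by -1.16.

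MYC and ribosome biogenesis lay on the lower side. Of 40 members 16 were lower (40%, against 5.19% of all genes) and 0 higher, with a median difference of -0.89. Of the 40, 39 were above background untreated. Among all probe sets at untreated levels of 11 to 13, 15.5% were lower. MYC itself stood at 14.54 untreated, 13.35 with OR21, 14.3 with EPZ-6438 and 12.33 with both, a difference of -2.21. The nucleolar factors NOP16 (12.54, 11.72, 11.99 and 10.64) and RRP9 (9.85, 9.19, 9.47 and 8.1) differed by -1.9 and -1.76, and the rRNA methyltransferase NOP2 by -1.6. In each of these 4 genes the combination array was the lowest of the MT-1 arrays. The motif CACGTG, the MYC-binding E-box, is in 14 of the 33 windows of this list and 8.69% of all windows, and in 6 of the 13 windows of members that were lower. The abundant nucleolar proteins NCL (-0.05) and NPM1 (-0.85) stayed within 1.

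Cholesterol biosynthesis had the largest share of lower members, 11 of 22 (50%, against 5.19% of all genes), with 1 higher and a median difference of -1.03. ACAT2, which forms acetoacetyl-CoA at the start of the pathway, stood at 14.61 untreated, 11.83 with OR21, 14.87 with EPZ-6438 and 11.28 with both (-3.33). DHCR7, the last enzyme, was at 14.5, 11.68, 14.67 and 11.41 (-3.08), and the isomerase EBP at 14.52, 12.82, 14.52 and 12.28 (-2.23). In these 3 the EPZ-6438 array lay at or just above the untreated level and the OR21 array within 0.6 of the combination. MVD (-2.41 or lower), HSD17B7 (-1.88), NSDHL (-1.81) and FDPS (-1.49) were lower too. The sterol response core, searched as TCACNCCAC on both strands, is in 1 of the 20 windows of this list, in 0 of the 11 windows of members past 1 and in 1.16% of all windows. CYP51A1, which demethylates lanosterol, was the exception, at 8.44, 10.56, 8.29 and 10.13 (1.7). Among enzymes of fatty acid synthesis 4 of 21 were lower (19%, against 5.19% of all genes). They were SCD (-1.75), ACACA (-1.43), FASN (-1.42) and the fatty acid carrier FABP5 (-1.1), and SCD5 was higher (at least 1.29).

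The amino acid stress response is the programme of the transcription factor ATF4 that supplies amino acids and charged tRNAs. It gave 16 of 40 members lower (40%, against 5.19% of all genes) and 1 higher, with a median difference of -0.88. AARS1, the alanyl-tRNA synthetase, stood at 14.32 untreated, 13.17 with OR21, 14.32 with EPZ-6438 and 11.99 with both (-2.32). The pseudokinase TRIB3 was at 9.81, 8.51, 9.22 and 7.77 (-2.03), YARS1 at 13.5, 12.63, 13.58 and 11.6 (-1.9) and ATF4 itself at 14.55, 13.68, 14.45 and 13.36 (-1.19). The member that was higher was the amino acid transporter SLC1A4 (1.35). After cyclic loess the lower count was 11 and with centred arrays 22. Within glutamine metabolism 8 of 20 members were lower (40%, against 5.19% of all genes). Examples were the transporter SLC38A5 (-2.28), PYCR1 (-1.48 or lower) and GLUD1 (-1.04), while GLUL was the 1 member higher. Of the respiratory chain 8 of 61 were lower (13.1%) and 0 higher, with a median of -0.56. Here the lower count ran from 5 after loess to 18 with centred arrays. All 61 were above background untreated. Among all probe sets the lower share was 14.5% at untreated levels of 9 to 11, 15.5% at 11 to 13 and 9.98% above 13. The lower share of the respiratory chain was thus near that of expressed genes. Its lower members included NDUFB10 (-1.51), NDUFS4 (-1.43) and CYC1 (-1.25). The glucose transporter SLC2A3 was higher by 2.89 (10.96, 12.29, 10.62 and 13.85) and hexokinase HK2 was at 9.74, 8.65, 9.3 and 7.4 (-2.33).

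**Figure D4:**
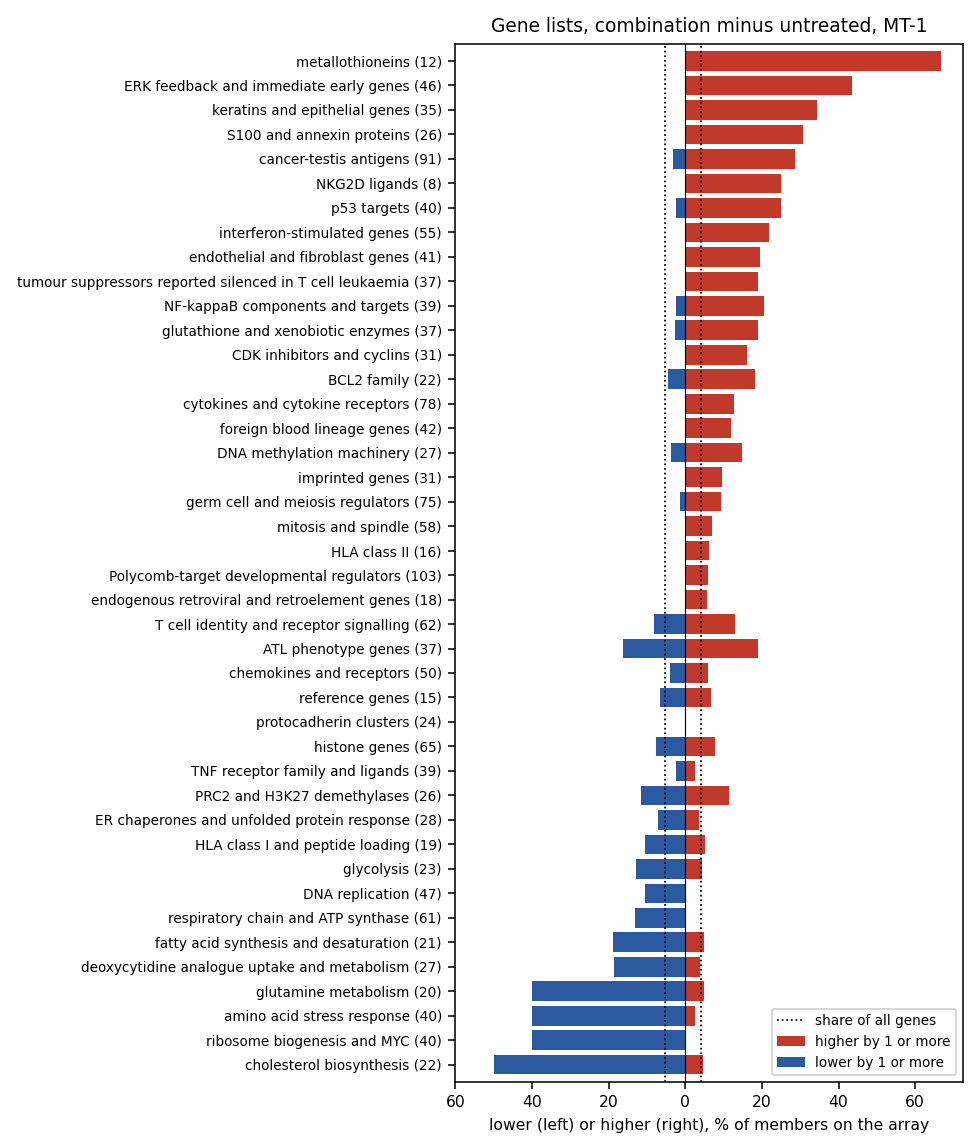
Share of members (horizontal, %) higher (right, red) or lower (left, blue) by 1 or more with both agents in MT-1 cells for 42 gene lists (vertical, number on the array in brackets), with dotted lines at the shares of all genes, 4.09% and 5.19%. Metallothioneins (66.7% higher) and ERK feedback genes (43.5%) stand at 1 end, cholesterol biosynthesis (50% lower) at the other. The shares of all genes include genes silent untreated, which could not be called lower.

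T cell genes went both ways, with 8 of 62 higher (12.9%, against 4.09% of all genes) and 5 lower (8.06%, against 5.19%). CD28, the main costimulatory receptor of T cells, had the lowest difference of all genes, -4.08, at 12.8 untreated, 11.42 with OR21, 12.36 with EPZ-6438 and 8.72 with both. The signalling adaptor SH2D1A (SAP) stood at 10.27, 8.99, 9.98 and 7.13 (-3.08 or lower), CD247, the zeta chain of the receptor complex, at 10.89, 9.8, 10.46 and 8.72 (-2.16) and the inhibitory receptor TIGIT at 9.23, 7.26, 8.52 and 6.28 (-2.04 or lower). In these 4 genes the combination array was the lowest and the untreated array the highest. On the higher side CD96, an adhesion receptor of T and NK cells, stood at 6.18, 8.81, 7.08 and 12.52 (at least 5.06). The adaptor LAT was at 8.61, 10.57, 8.7 and 11.86 (3.24), the quiescence factor KLF2 at 8.15, 9.61, 9.46 and 11.27 (3.12) and LEF1 at 12.28, 12.95, 12.56 and 14.32 (2.04).

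ATL phenotype genes gave 7 of 37 higher (18.9%, against 4.09% of all genes) and 6 lower (16.2%, against 5.19%). Lower were CCR8, a chemokine receptor of skin-homing and regulatory T cells (13.22, 11.87, 13.11 and 10.32; -2.9), CCR4, the receptor targeted by mogamulizumab (12.77, 11.87, 12.72 and 11.17; -1.6), TNFRSF8 (CD30; -1.93) and BATF3 (-1.05). Higher were PRDM1, a driver of terminal differentiation (10.83, 12.1, 12.02 and 13.28; 2.45), STAT3 (7.59, 7.51, 7.86 and 9.89; 2.31) and GPR183 (at least 2.56). IRF4 (-0.44), CADM1 (0.87) and IL2RA (-0.79) stayed within 1 of untreated. Among cytokines and their receptors 10 of 78 were higher (12.8%, against 4.09% of all genes) and 0 lower. IL2RB, the signalling beta chain of the interleukin-2 receptor, stood at 7.09 untreated, 8.12 with OR21, 8.04 with EPZ-6438 and 12.61 with both (at least 5.15). IL22, a cytokine that acts on epithelia, was above background with both agents only among the 4 MT-1 arrays, at 4.1, 7.07, 4.09 and 11.74 (at least 4.28). The chemokine CCL3 was at 5.3, 7.76, 6.52 and 10.9 (at least 3.45).

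**Figure D5:**
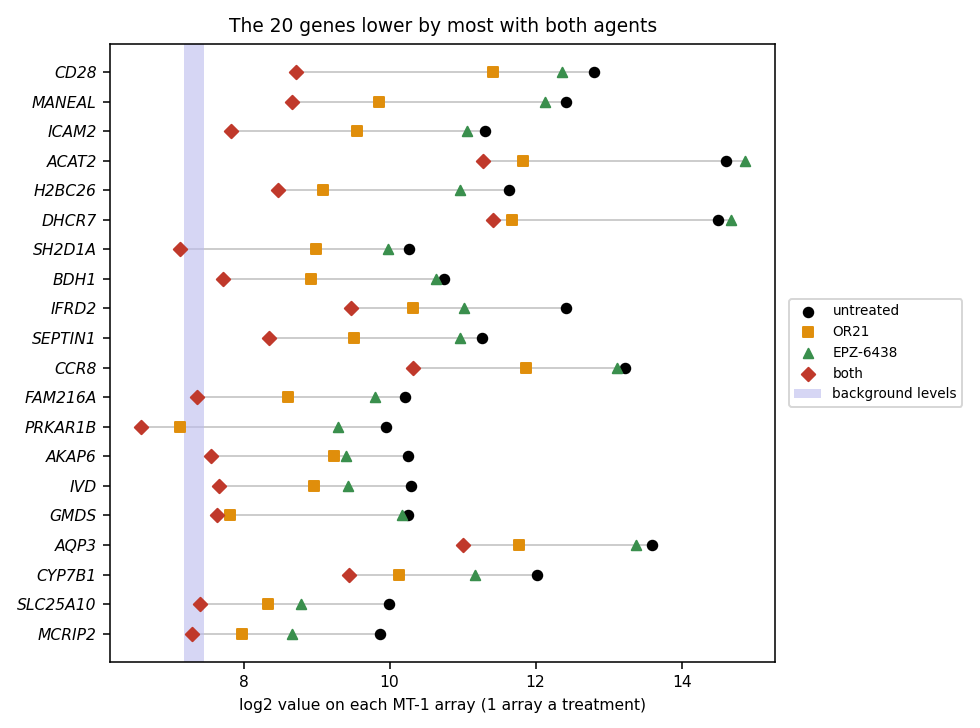
Log2 values (horizontal) of the 20 genes with the lowest difference between combination and untreated MT-1 cells (vertical, ranked), 1 array for each of 4 treatments, with the range of the 4 background levels shaded. CD28 (12.8 to 8.72) leads, and the combination array has the lowest value for each gene shown.

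Genes of the targeted pathways went both ways, while DNMT1, DNMT3A and EZH2 stayed within 1 of their untreated level. Of the DNA methylation machinery 4 of 27 were higher (14.8%) and 1 lower (3.7%), and of PRC2 and related genes 3 of 26 higher and 3 lower (11.5% each). Of the genes of deoxycytidine analogue uptake and metabolism 1 of 27 was higher (3.7%) and 5 were lower (18.5%). Over all genes 4.09% were higher and 5.19% lower. In each of these lists 20 members were above background untreated. Among all probe sets at untreated levels of 9 to 11, 6.23% were higher and 14.5% lower. The lower shares of the PRC2 and uptake lists were thus near that of expressed genes. DNMT1 stood at 12.37 untreated and 12.15 with both agents (-0.22), its cofactor UHRF1 at 12.12 and 12.57 (0.45) and DNMT3A at 8.61 and 8.98 (0.37). DNMT3B was above background with both agents only, at 5.38, 6.63, 5.03 and 7.76 (at least 0.3). The demethylase KDM6B was at 6.75 untreated and 7.55 with both (at least 0.1). For DNMT3B and KDM6B only a lower bound is known, so they cannot be placed within 1. EZH2 was at 13.18 and 13.49 (0.31), SUZ12 at 12.93 and 12.82 (-0.12) and the demethylase KDM6A at 7.55 and 7.57 (0.02). DCK, the kinase that activates deoxycytidine analogues, was at 10.33 and 10.0 (-0.32). Past 1 were EZH1, the paralogue of EZH2 (8.18, 8.88, 8.83 and 9.4; 1.23), and of the PRC1 subunits PHC1 (1.8), PHC3 (1.08), PCGF6 (-1.27), CBX6 (-1.25) and PCGF1 (-1.06). In the methylation list these were TET2, which oxidises methylcytosine (at least 1.2), the cytidine deaminase APOBEC3B (2.78), GADD45A (1.37), ZBTB38 (1.15) and MBD3 (-1.59). The nucleoside transporter SLC29A2 was at 10.52, 8.26, 10.2 and 8.0 (-2.52) and SLC29A1 at 12.04 and 10.66 (-1.39). RNA levels do not show protein or enzyme activity, which both agents act on. Developmental regulators that Polycomb represses in most tissues gave 6 of 103 members higher (5.83%) and 0 lower. The higher share by the rule was near the 4.09% of all genes. The median difference of the list in the deposited values was 0.47, against -0.05 over all genes. Of the 103 members 79 lay above 0 in those values, as did 46.1% of all genes. With no background level 32 members were higher and 0 lower, when 8.73% of all probe sets were higher. Of the 103, 12 were above background untreated, so most could not be called lower. The heart factor HAND1 was above background with both agents and on no other MT-1 array (3.98, 4.45, 3.94 and 8.81; at least 1.35), and HOXD13 reached 9.06 (at least 1.6).

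Histone genes gave 5 of 65 higher and 5 lower (7.69% each, against 4.09% and 5.19% of all genes). The split was 4 and 10 with centred arrays and 5 and 2 after cyclic loess. Of the 65, 53 were above background untreated. Among all probe sets at untreated levels of 9 to 11, 6.23% were higher and 14.5% lower, so neither share stood out from expressed genes. H4C5 stood at 9.44 untreated, 14.12 with OR21, 9.61 with EPZ-6438 and 14.47 with both (5.03), and the linker histone H1-5 at 8.17, 12.44, 7.99 and 13.39 (5.22). H2BC26 stood at 11.63, 9.09, 10.97 and 8.47 (-3.16). In MT-2 cells with both agents 18 members of this list were lower by 1 or more (0.735% of all genes were) and 1 was higher (1.65%). Many histone genes have near copies, so their probe sets may not be separate measurements.

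The MT-2 arrays, at the lower doses of 100 nM and 500 nM, were set beside these differences. With both agents 293 MT-2 probe sets were higher by 1 or more (1.65% of 17709) and 130 lower (0.734%). Of the 725 higher in MT-1, 65 were higher in MT-2 (8.97%, and 22.2% of those higher in MT-2), and 8 were lower there. Of the 919 lower in MT-1, 34 were lower in MT-2 (3.7%, and 26.2% of those lower in MT-2), and 9 were higher. These arrays share no sample with the MT-1 comparison, but the doses differ, so no comparison of size is made.

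Of the 270 probe sets higher from a silent start, 108 (40%) were above background in untreated MT-2 cells, against 7.49% of all 9894 silent in untreated MT-1. Of the 59 probe sets at or under background in untreated MT-1 and at 12 or more in untreated MT-2, 27 were higher by 1 or more with both agents (45.8%). Between background and 12 in untreated MT-2 the share was 81 of 682 (11.9%), and for genes under background in both untreated lines 162 of 9153 (1.77%). On the single-agent arrays 20 of the 59 stood above background with OR21 and 8 with EPZ-6438, against 39 with both. The genes of this set did not move as a block. LGALS1 and S100A11, at 14.9 and 14.01 in untreated MT-2, reached 13.03 and 14.43 in treated MT-1, and the actin-bundling FSCN1, at 16.67 in untreated MT-2, reached 10.39. TNFRSF9 (4-1BB) and IL9R, at 16.31 and 15.1 in untreated MT-2, stayed under background at 5.74 and 5.61. KRT8, IL22, CD96 and UCHL1 reached levels in treated MT-1 that untreated MT-2 did not have, 7.95, 5.32, 3.11 and 4.48 there.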

How the data were processed

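The deposited table holds log2 expression values of 8 arrays made by the authors with RMA, per the submitters' processing notes; log2 is assumed because RMA gives it, and for the RMA version, the annotation release and any later rescaling the sources used here say nothing. Its values ran from 2.14 to 18.91. Symbols came from the platform annotation (17709 probe sets with 1 symbol, 3739 with none), and all their Entrez identifiers were found in the RefSeq gene table. Differences were computed in Python 3.11.15 (pandas 2.3.3) with no filter other than the background rule (95th percentile of 612 negative-control probe sets of each array). Gene lists used 1 probe set a gene, that with the highest mean over the 8 arrays. Quantile and cyclic loess scaling used limma 3.58.1 in R 4.3.3. The call rule was checked on simulated differences. Genes named were the 20 highest and 20 lowest, the 10 highest and lowest above background on both arrays, up to 6 and 3 members past 1 of each list, target genes, and members of near-identical families; markers were named by a list of their own. Outside this rule, and chosen after their values were seen, were ANXA5, ATF4, BATF3, CIITA, CTCFL, DUSP4, DUSP6, EGR1, EPCAM, FDPS, FSCN1, GLUD1, GSTP1, HLA-DRA, IFIT1, IL9R, ISG15, KLF10, MB, MT2A, MX1, NCL, NPM1, OAS1, OCLN, RIGI, SYCP2, TNFRSF9 and VCX3A, as were the genes whose promoters are printed and the motifs searched. The comparison, members and lists were chosen with earlier results of these data known. With 1 array for each condition, precision is limited by the number of arrays.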

Additional observations from a re-analysis of the deposited data

Results flagged for a closer look

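Chosen because the lines went opposite ways by 1 or more with both agents, 6 of the named genes are given with the MT-1 difference first; the difference between the lines was not tested and the doses differed. STC2, a secreted glycoprotein of the stress response, differed by -2.07 and, in MT-2, by 1.85. The chemokine CXCL10 differed by 2.0 and -1.66, the cytokine IL26 by at least 2.31 and -2.0 or lower, and TNFSF10 (the death ligand TRAIL) by at least 1.61 and -1.32. The B cell kinase BLK differed by at least 2.87 and -1.13, and ZSWIM6 by 4.10 and -1.08.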

How the results depend on the processing

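The count of higher probe sets, 725, was 513 with centred arrays, 724 after quantile normalization and 909 after cyclic loess. It was 479 with the background at the 99th percentile, 1546 with no background level and 1211 with a low-value filter in its place. The count of lower probe sets, 919, was 1484 with centred arrays, 605 after cyclic loess, 529 with the background at the 99th percentile and between 792 and 1136 under the other settings run. The higher-to-lower order of the counts turned after cyclic loess, with no background level and with the low-value filter. A single background level for both arrays, added after the values were seen, gave 725 and 882. No named gene past 1 changed sign under any setting that gave it a value. With centring and either normalization the named genes moved by less than 0.585, the mark used in place of a replicate spread (KDM6B had no difference with centring or quantile normalization), and with no background level or one at the 90th percentile 87 of 267 moved by more. With one at the 99th percentile 38 of the 267 were left without a difference, HAND1, HOXD13, KRT18, GBP4 and BAD among them, and 109 of the other 229 moved by more. The median over all named probe sets, -0.05, was -0.28 with centred arrays and 0.05 after cyclic loess. Centring turned the sign of the medians of HLA class II (0.18 to -0.06), T cell (0.2 to -0.04), ATL phenotype (0.1 to -0.14), imprinted, cytokine, mitosis, DNA methylation, NF-kB, retroviral, PRC2, fatty acid and foreign blood genes. Causes were not tested. No paired analysis was possible because each group had 1 array. Without replicates, values near 1 carry no assurance of being past it.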

Other observations

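Ligands of NKG2D, the activating receptor by which NK cells recognise stressed cells, gave 2 of 8 members higher in MT-1 with both agents. This was 25% of a short list, against 4.09% of all genes. ULBP2 stood at 7.7 untreated, 8.48 with OR21, 8.02 with EPZ-6438 and 10.03 with both (2.32), and MICB at 9.53, 10.47, 10.14 and 10.97 (1.44). In MT-2 cells with both agents 4 of the 8 members were higher (1.65% of all genes were). Genes of other blood lineages gave 5 of 42 members higher (11.9%, against 4.09% of all genes) and 0 lower. Of the 42, 2 were above background untreated, so most could not be called lower. HDC, the histamine-forming enzyme of mast cells and basophils, was at 6.19, 10.37, 6.45 and 11.98 (at least 4.52), HBA1, a haemoglobin chain, at 6.94, 8.07, 7.86 and 10.0 (at least 2.55) and GNLY, a granule protein of cytotoxic cells, at 3.76, 5.15, 3.66 and 9.42 (at least 1.96). Of the myeloid markers 1 of 6 was above background with both agents, MPO, the highest of them at 7.3. That level was under the background of the untreated array, 7.46, so MPO had no measurable difference.

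Imprinted genes gave 3 of 31 members higher (9.68%, against 4.09% of all genes) and 0 lower. FAM50B was higher by most, at 5.64, 9.87, 6.12 and 9.83 (at least 2.37). Of 24 protocadherin genes 0 were higher and 0 lower by the rule of 1 log2 unit, and 3 were measurable. Among HLA class II genes 1 of 16 was higher (6.25%, near the 4.09% of all genes). It was the protease CTSS, at 6.68, 8.34, 7.98 and 9.65 (at least 2.19). HLA-DRA (15.86 and 16.06) and the transactivator CIITA (12.79 and 12.62) lay close to their untreated levels. In DNA methylation machinery APOBEC3B, a cytidine deaminase, stood at 7.65, 9.24, 8.78 and 10.42 (2.78).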
